A study of Homo sapiens with 6 samples.

Results

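HSP90 is a chaperone system made of an ATP-driven dimer, cochaperones that dock on it and transcription factors that set its supply. The 10 genes described here are its cytosolic forms HSP90AA1 and HSP90AB1, the mitochondrial form TRAP1, the cochaperones AHSA1, STIP1, CDC37, PTGES3 and FKBP4, and the heat shock factors HSF1 and HSF2. They were chosen by symbol, with earlier results of these data known, and all 10 were found among the 59248 gene symbols of the table. RNA from 6 samples of Jurkat, a human T-cell leukemia line, had been sequenced in bulk. Of these libraries, 3 were from cells that overexpressed PDCD1 28, a splice form of the PD-1 receptor gene, and 3 from vector cells. Cells of both groups are called Jurkat KO-1 in the growth protocol, a name that is not explained. Replicates carry numbers but no separate cultures or clones are named, so the p-values cover the spread between libraries only, and this spread may be technical. The purpose given for the series was to find what the isoform does downstream in T cells.

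HSP90 binds client proteins late in their folding, among them many kinases and nuclear receptors, and ATP hydrolysis drives its opening and closing. Cochaperones divide the cycle between them: some bring clients, some hold the dimer open or closed, and some speed hydrolysis. In T cells, kinases of antigen receptor signalling are among the known clients. HSF1 binds heat shock elements, which are runs of inverted GAA units, and raises transcription of chaperone genes when unfolded protein accumulates, while HSP90 itself helps to keep HSF1 inactive.

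Total estimated counts were 59911578 to 84220970 per library, and each of the 10 genes had at least 2731 estimated counts in every library. PDCD1 was at 13.8 ± 1.03 CPM in overexpression and 0.229 ± 0.011 CPM in vector (SD, n = 3 each). CPM here are estimated counts scaled to the TMM-adjusted library size. All 14 markers of T cells and T-cell leukemia passed the expression filter, and their summed level was 3291 to 3352 CPM in overexpression and 3362 to 3523 CPM in vector. Of these 14 markers, 3 rose and 8 fell, beside 22.6% and 23.4% of all genes tested. The similar sums hide large falls of single markers. CD2 went from 25.6 ± 1.71 CPM in vector to 4.32 ± 0.312 CPM in overexpression, and CD7 from 74.4 ± 8.36 to 17.5 ± 1.01 CPM (SD, n = 3). Summed levels of other marker lists were low. They were 28.8 to 37.0 against 41.7 to 60.1 CPM for 5 B cell markers (1 rose, 1 fell), 0.255 to 0.438 against 1.55 to 36.1 CPM for 4 erythroid markers (2 fell), and at most 2.51 CPM in any library for the myeloid, natural killer cell and epithelial lists. Their part in the results below was not tested. Vector replicate 2 stood apart from the other vector libraries. The chi-square per degree of freedom over genes above a minimum count was 11.5 and 12.7 against them. In every other pair of the same group it was 2.32 to 2.58. These values were computed on estimated counts divided by 4, and their size depends on that divisor.

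Sequences upstream of the annotated starts are shown first, because the heat shock element is the site that heat shock factors bind. Binding to any of these genes was not measured here. RefSeq (GRCh38.p14) gave the 250 bases before the start for 8 of the 10 genes; FKBP4 and HSF1 had no entry. The search used 3 alternating units, GAANNTTCNNGAA or TTCNNGAANNTTC, which are each other's reverse complement, so that both strands are covered. The element was found in 0.441% of 35116 upstream sequences. Counted per gene, over all starts of a gene, it was found in 0.557% of 27305 genes and in 2 of the 8 genes here, HSP90AA1 and HSP90AB1. The sequences below are printed on the strand of the gene, with the 3-unit matches in capitals; HSPA8, an HSP70 gene, and CHORDC1, a gene of an HSP90-binding protein, are given for comparison.
HSP90AB1: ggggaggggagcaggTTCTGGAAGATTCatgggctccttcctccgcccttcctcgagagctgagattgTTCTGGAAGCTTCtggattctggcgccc
HSP90AA1: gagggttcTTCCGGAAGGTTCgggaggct
HSPA8: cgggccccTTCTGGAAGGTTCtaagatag
CHORDC1: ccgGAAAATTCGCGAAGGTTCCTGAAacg

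The HSP90AB1 stretch lies at chr6:44247763-44247858 on the plus strand, 180 to 85 bases before the third of 3 RefSeq starts, and GENCODE 29 places it in an intron of the longer transcripts. The HSP90AA1 stretch lies at chr14:102087112-102087140 on the minus strand, 96 to 68 bases before the downstream start of 2. An exon and a UTR annotated for the gene in GENCODE 29 overlap it. No 3-unit match was found before the upstream start of HSP90AA1 or the other 2 starts of HSP90AB1. The HSPA8 stretch lies at chr11:123062171-123062199 and the CHORDC1 stretch at chr11:90223084-90223112, both on the minus strand. Each is also overlapped by an exon and a UTR that GENCODE 29 annotates for its gene. In CHORDC1, 3 overlapping matches form a single run. HSPA8 has a second 3-unit match, at -230 to -218 bases from its start, which lies outside the printed stretch. The looser 2-unit form, GAANNTTC or TTCNNGAA, is part of every 3-unit match and was present in 11.6% of all upstream sequences. TRAP1, AHSA1, STIP1, CDC37, PTGES3 and HSF2 held neither form in this window, which says only that these letters are not there.

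**Figure D1:**
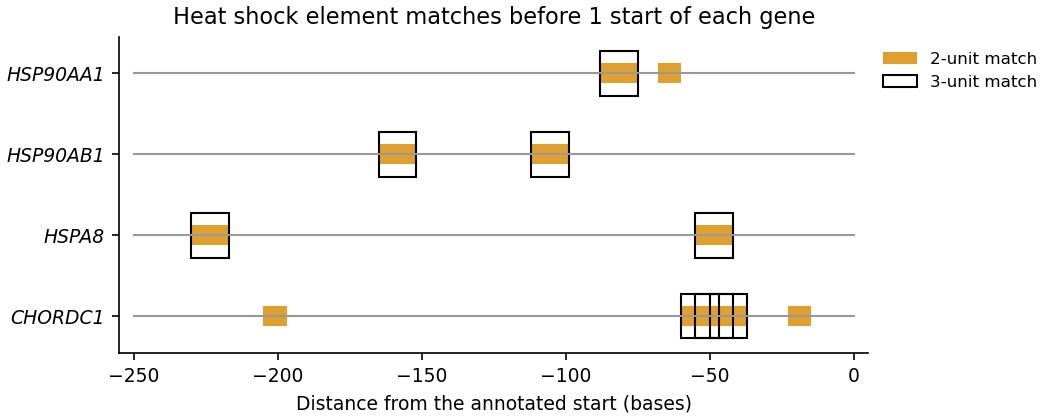
Matches to the heat shock element in the 250 bases before 1 start of HSP90AA1, HSP90AB1, HSPA8 and CHORDC1; the x axis is the distance from the start in bases, filled bars are 2-unit matches and open boxes 3-unit matches. HSP90AA1 has 1 box, HSP90AB1 and HSPA8 have 2 each and CHORDC1 has 3 that overlap.

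In overexpression 8 of the 10 genes were lower and 0 passed the test in the other direction, with a median log2 fold change of -0.85 over the 10 against 0.02 over all 21055 genes tested (edgeR adjusted p below the threshold of 0.05). The background was broad: 46.1% of all genes tested passed in either direction, with 23.4% of all genes lower and 22.6% higher. Because the 10 genes were chosen with earlier results of these data known, their shares are not independent evidence of a direction. Both cytosolic HSP90 genes and the cochaperones AHSA1, STIP1, PTGES3 and FKBP4 formed a narrow band, 1.76-fold to 2.09-fold lower. TRAP1 and HSF1 were lower by less, and CDC37 and HSF2 did not pass. In bulk RNA, fewer cells with a transcript and less of it per cell cannot be told apart. In 8 of the 10 genes the CPM of every overexpression library lay below every vector library, against 28.6% of all genes. CDC37 was the reverse case, against 30.1% of all genes, and in either direction 58.7% of all genes showed no overlap.

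**Figure D2:**
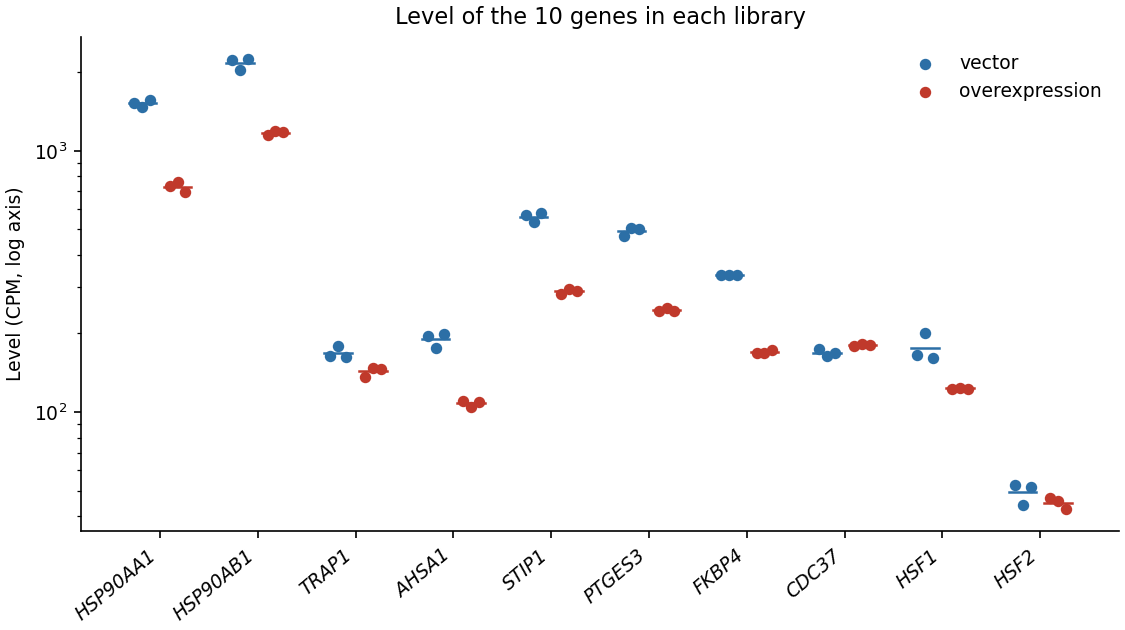
Level of each of the 10 genes in each library, in CPM on a log axis; points are libraries and lines are group means of 3. HSP90AA1, HSP90AB1, AHSA1, STIP1, PTGES3 and FKBP4 are separated widely, whereas the groups of HSF2 overlap and CDC37 is slightly higher in overexpression.

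HSP90AA1 encodes HSP90 alpha, the stress-inducible cytosolic form (chromosome 14, 102080738 to 102139699, minus strand, GENCODE 29 on GRCh38). Its level was 730.4, 757 and 696 CPM in overexpression and 1526, 1473 and 1568 CPM in vector. Every overexpression library was close to the midpoint between 0 and the vector level, and the groups did not overlap. The log2 fold change was -1.06 ± 0.05 (SE; edgeR adjusted p = 3e-06), the furthest down of the 10 genes, at percentile 7.95 of all genes tested. It shares 197 exonic bases with WDR20 on the opposite strand, which stood at 32.2 ± 1.63 and 32.9 ± 1.41 CPM, far below it.

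HSP90AB1 encodes HSP90 beta, the constitutive cytosolic form (chromosome 6, 44246166 to 44253888, plus strand). It stood at 1147, 1194 and 1177 CPM in overexpression and 2228, 2040 and 2240 CPM in vector, again without overlap. Vector replicate 2 was the lowest of the vector libraries for this gene. The log2 fold change was -0.89 ± 0.05 (SE; edgeR adjusted p = 6.3e-06). By estimated counts, which are not corrected for gene length, it was the 21st most abundant gene of the table and HSP90AA1 the 44th.

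Both genes together took 0.197% ± 0.0035 of all counts when the isoform was overexpressed and 0.356% ± 0.0172 with the vector (SD, n = 3; exact two-sided permutation p = 0.1, the smallest that 3 libraries against 3 can give). HSP90AA1 made up 38.9%, 38.8% and 37.2% of this pair in overexpression and 40.6%, 41.9% and 41.2% in vector. The alpha share was thus lower in each overexpression library, by 2.96 percentage points on average (exact two-sided permutation p = 0.1, n = 3; 0.157 after Benjamini-Hochberg adjustment over the 11 within-library measures computed). A share within a library does not depend on scaling between libraries. Processed copies of these genes could take or give reads: the most abundant, HSP90AB3P, had 133 to 212 estimated counts and HSP90AA2P 69 to 145, against at least 44501 for either parent. With copies added to their parents the difference in share was -2.97 percentage points.

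TRAP1, the mitochondrial HSP90 form, changed less than the cytosolic pair (chromosome 16, 3651639 to 3717597, minus strand). Its level was 136, 148 and 147 CPM in overexpression and 164, 179 and 163 CPM in vector. The groups stayed apart, although by little, with a log2 fold change of -0.24 ± 0.06 (SE; edgeR adjusted p = 0.01). Without overexpression replicate 1 the adjusted p was 0.0498. TRAP1 shares 1531 exonic bases with DNASE1 on the opposite strand, and without a stated strand setting their reads cannot be told apart there; DNASE1 was at 74.7 ± 0.425 CPM in overexpression and 67.6 ± 4.77 CPM in vector and did not pass (edgeR adjusted p = 0.0847). HSP90B1, the endoplasmic reticulum form, which is not 1 of the 10, fell from 526 ± 67.2 to 258 ± 10.3 CPM (log2 fold change -1.03 ± 0.09, SE; edgeR adjusted p = 6.1e-05).

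STIP1, also called HOP, links HSP70 to HSP90 and passes clients between them (chromosome 11, 64185272 to 64204543, plus strand). It was at 283, 296 and 292 CPM in overexpression and 569, 533 and 579 CPM in vector. The drop, -0.95 ± 0.05 on the log2 scale (SE; edgeR adjusted p = 4.9e-06), lay between those of the cytosolic HSP90 genes. Set against the summed counts of both HSP90 genes in the same library, STIP1 had 15.3 ± 0.268 counts per 100 in overexpression and 15.2 ± 0.015 per 100 in vector (SD, n = 3). The groups overlapped in this ratio (exact two-sided permutation p = 1, n = 3).

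AHSA1 encodes AHA1, which speeds ATP hydrolysis by HSP90 (chromosome 14, 77457870 to 77469474, plus strand). Levels were 110.0, 105 and 109 CPM in overexpression and 196, 176 and 198 CPM in vector. All overexpression libraries were lower, with a log2 fold change of -0.81 ± 0.06 (SE; edgeR adjusted p = 2.2e-05). Relative to cytosolic HSP90 it was 5.70 ± 0.273 counts per 100 in overexpression and 5.14 ± 0.116 in vector, higher in each overexpression library than in any vector library (exact two-sided permutation p = 0.1, n = 3; 0.157 adjusted). AHSA1 shares 83 exonic bases with VIPAS39 on the opposite strand, which changed the other way, at 41.3 ± 1.64 against 28.0 ± 2.65 CPM.

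PTGES3, or p23, binds and stabilises the closed, ATP-bound dimer late in the cycle (chromosome 12, 56663341 to 56688408, minus strand). It was at 243, 251 and 243 CPM in overexpression and 474, 509 and 502 CPM in vector. The log2 fold change was -1.01 ± 0.05 (SE; edgeR adjusted p = 3.2e-06). Its ratio to cytosolic HSP90, 12.9 ± 0.0459 against 13.4 ± 0.955 counts per 100, overlapped between the groups (exact two-sided permutation p = 0.7, n = 3). The copy PTGES3P1 had 21 to 38 estimated counts in overexpression and 65 to 90 in vector, against at least 15539 of the parent.

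FKBP4, or FKBP52, is a peptidyl-prolyl isomerase that joins HSP90 in steroid receptor complexes (chromosome 12, 2794953 to 2805423, plus strand). The vector libraries were nearly equal, at 335.3, 334.8 and 333.8 CPM, and the overexpression libraries stood at 167.7, 167.9 and 172.7 CPM. This was the smallest edgeR adjusted p among the 10 genes, at 2.2e-06, with a log2 fold change of -0.98 ± 0.04 (SE). Per 100 cytosolic HSP90 counts it was 8.92 ± 0.306 in overexpression and 9.08 ± 0.402 in vector, with overlap (exact two-sided permutation p = 0.7, n = 3). FKBP5, or FKBP51, its close relative in the same complexes, was at 94.6 ± 2.75 and 103 ± 6.78 CPM and did not pass (edgeR adjusted p = 0.14), but did without vector replicate 2 (log2 fold change -0.17, adjusted p = 0.0105). FKBP5 was singled out after its values were seen.

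CDC37 brings kinase clients to HSP90 and is not counted among the classical heat-induced genes (chromosome 19, 10391134 to 10420121, minus strand). Its level was 179, 182 and 181 CPM in overexpression and 174, 164 and 168 CPM in vector. The overexpression libraries were all slightly higher, but the log2 fold change of 0.10 ± 0.04 (SE) did not pass (edgeR adjusted p = 0.0956). With upper-quartile scaling it was 0.15 and passed (adjusted p = 0.0202), and with the stricter filter 0.11 (adjusted p = 0.0498). Relative to cytosolic HSP90 in the same library, CDC37 was at 9.50 ± 0.151 counts per 100 in overexpression and 4.57 ± 0.137 in vector, a 2.08-fold difference with no overlap (exact two-sided permutation p = 0.1, n = 3; 0.157 adjusted). The same ratio was 1.65-fold higher for TRAP1, 1.35-fold higher for HSF1 and 1.77-fold higher for HSF2, each without overlap and with the same p. Cytosolic HSP90, the denominator, fell to 0.552 of its vector share of counts. A gene whose own share did not change is therefore also higher in this ratio, and TRAP1 and HSF1 were themselves lower in CPM.

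**Figure D3:**
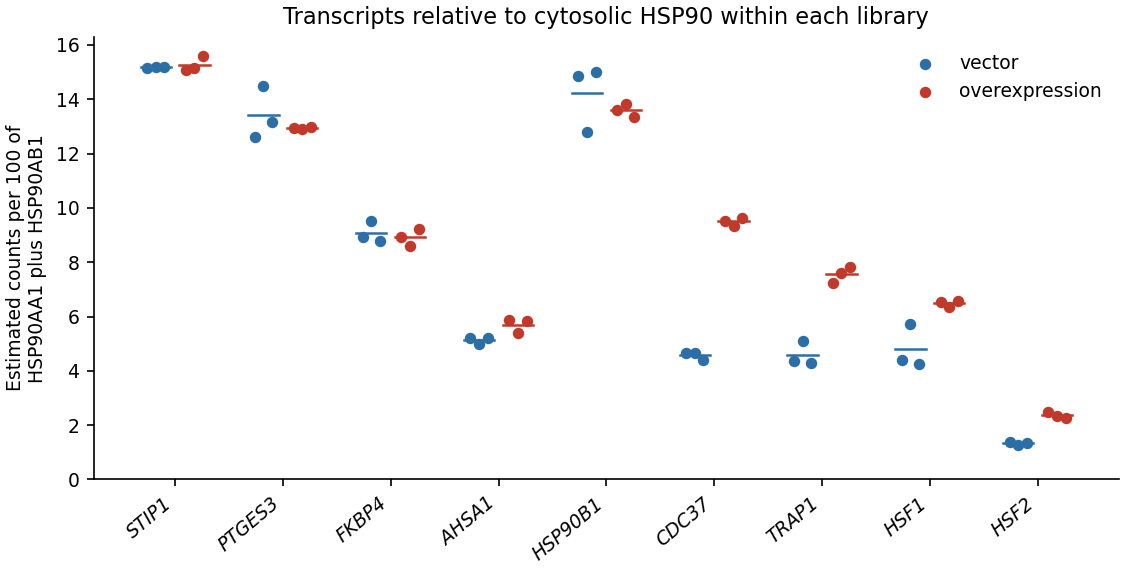
Estimated counts of each gene per 100 estimated counts of HSP90AA1 plus HSP90AB1 in the same library; points are libraries, lines are means of 3, and the axis starts at 0. STIP1, PTGES3, FKBP4 and HSP90B1 overlap between the groups, and AHSA1, CDC37, TRAP1, HSF1 and HSF2 are higher in all 3 overexpression libraries.

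HSF1, the main activator of the heat shock response, was lower in overexpression (chromosome 8, 144291591 to 144314722, plus strand). Its level was 123, 124 and 123 CPM in overexpression and 166, 202 and 162 CPM in vector. The groups did not overlap, and vector replicate 2 was the highest library. The log2 fold change was -0.52 ± 0.08 (SE; edgeR adjusted p = 0.0013), and -0.42 without vector replicate 2 (adjusted p = 9.65e-06). HSF1 shares 139 exonic bases with DGAT1 on the opposite strand, which was also lower, at 52.7 ± 0.571 against 69.2 ± 7.85 CPM (edgeR adjusted p = 0.0049).

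HSF2, a related factor that forms trimers with HSF1 and acts in development and mild stress, did not pass (chromosome 6, 122399546 to 122433119, plus strand). It was at 46.9, 45.7 and 42.7 CPM in overexpression and 52.5, 44.2 and 51.8 CPM in vector, so the groups overlapped through vector replicate 2. The log2 fold change was -0.13 ± 0.08 (SE; edgeR adjusted p = 0.199). Without vector replicate 2 it was -0.22 and passed (adjusted p = 0.00806).

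**Figure D4:**
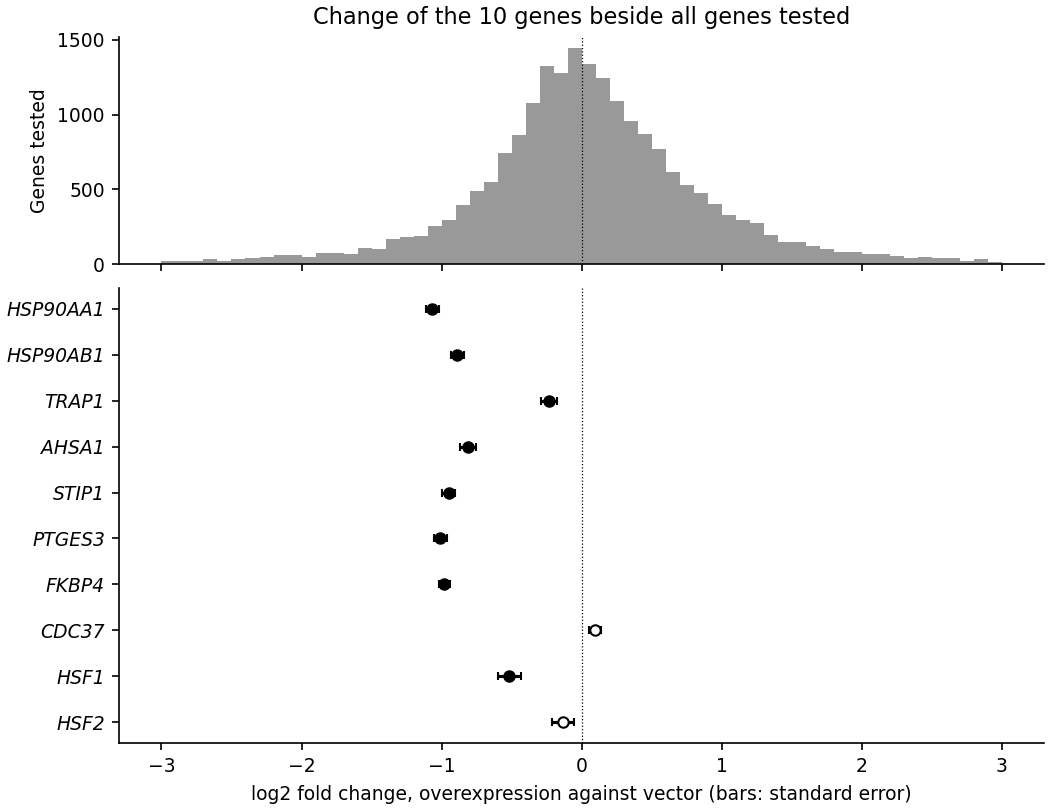
Upper panel: number of tested genes by log2 fold change, overexpression against vector (498 genes at or beyond 3 in either direction not drawn). Lower panel: log2 fold change with its standard error for the 10 genes; filled points passed the edgeR test. The points of 6 genes lie between -1.06 and -0.81, and CDC37 is the only point above 0.

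Levels of different genes were compared per kilobase of exon, with exons merged over all GENCODE 29 transcripts of a gene, which understates genes with long minor transcripts such as HSP90AA1. On this scale HSP90AB1 was highest, at 728 ± 37.6 CPM per kilobase in vector and 393 ± 7.95 in overexpression (SD, n = 3). HSP90AA1 followed at 290.1 ± 9.07 and 139 ± 5.81, then PTGES3 at 146 ± 5.46 and 72.3 ± 1.44, and STIP1 at 120.3 ± 5.13 and 62.3 ± 1.37. These first 4 kept their order in all 6 libraries. In vector, FKBP4 (64.6 ± 0.15) and AHSA1 (64.4 ± 4.14) did not differ beyond their spread and stood above CDC37 (55.4 ± 1.75). In overexpression CDC37 (59.4 ± 0.552) stood above AHSA1 (36.7 ± 0.941) and FKBP4 (32.7 ± 0.544). TRAP1 and HSF1 overlapped in vector, at 32.3 ± 1.71 and 33.2 ± 4.16, and HSF2 was lowest in both groups, at 18.3 ± 1.70 and 16.7 ± 0.799.

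Other HSP90 cochaperones and assembly factors moved both ways. Of 35 further paralogs, cochaperones and assembly factors tested, 13 fell and 7 rose (37.1% and 20%, beside 23.4% and 22.6% of all genes), with a median log2 fold change of -0.18. Without the 3 genes that the heat shock factor target list also holds, 11 of 32 fell and 7 rose. With the stricter filter, 13 of 34 genes of the full list fell and 8 rose, beside 4449 and 4342 of all 14917 genes. This list too was chosen with earlier results of these data known and is not independent evidence of a direction. Besides HSP90B1, the falls with the smallest adjusted p were BAG1, CHORDC1, CACYBP and TSC1. BAG1, a nucleotide exchange factor of HSP70, went from 65.9 ± 3.39 to 25.2 ± 0.504 CPM (edgeR adjusted p = 3e-06), and CHORDC1 from 138 ± 11.5 to 66.7 ± 3.93 CPM (edgeR adjusted p = 2.2e-05). CACYBP, the calcyclin-binding protein, and TSC1, the tuberous sclerosis protein that also slows HSP90, had log2 fold changes of -0.64 ± 0.05 and -0.53 ± 0.07 (SE). ST13, or HIP, which stabilises HSP70, and DNAJC7, which binds both chaperones, fell by 0.29 and 0.44 on the log2 scale. NUDC and the phosphatase PPP5C, both HSP90 partners, fell by 0.41 and 0.23.

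Among the 7 genes of this list that were higher, TELO2 and RUVBL2 encode parts of complexes that work with HSP90. TELO2, a subunit of the TTT complex that matures PI3K-like kinases, rose from 107 ± 4.33 to 171 ± 8.73 CPM (edgeR adjusted p = 4.7e-05), and NUDCD3 from 48.8 ± 4.81 to 84.2 ± 1.24 CPM (edgeR adjusted p = 8.2e-05). RUVBL2, an ATPase of the R2TP complex, had a log2 fold change of 0.37 ± 0.04 (SE; edgeR adjusted p = 0.00023). Its partner RUVBL1, singled out after its values were seen, was at 75.5 ± 5.36 and 85.4 ± 5.50 CPM and did not pass (adjusted p = 0.07). It was called lower by DESeq2 (log2 fold change -0.20, adjusted p = 0.0457) and without overexpression replicate 3 (-0.24, adjusted p = 0.0377). PPID, the cyclophilin 40 gene, and FKBP8 rose by 0.36 and 0.24 on the log2 scale. AHSA2P, a transcribed relative of AHSA1, was at 117 ± 2.68 and 135 ± 16.8 CPM and did not pass (log2 fold change -0.21, adjusted p = 0.078), but did without vector replicate 2 (-0.32, adjusted p = 0.000115) and with DESeq2 (-0.23, adjusted p = 0.0262).

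Genes commonly given as heat shock factor targets were mostly lower. Of 26 such genes outside the 10, 16 fell and 3 rose (61.5% and 11.5%, beside 23.4% and 22.6% of all genes tested). Their median log2 fold change was -0.47. The list was chosen with earlier results of these data known and is not independent evidence of a direction. HSPH1, an HSP110 gene, and HSPA8, the constitutive HSP70 gene, changed most, with log2 fold changes of -2.35 ± 0.05 and -2.21 ± 0.04 (SE; edgeR adjusted p = 8.7e-08 and 6.2e-08). DNAJA1, an HSP40 gene that works with HSPA8, fell from 399 ± 13.5 to 110 ± 3.51 CPM. The mitochondrial chaperonin gene HSPD1 fell from 1238 ± 14.2 to 479 ± 12.99 CPM, and HSPE1, the gene of its partner HSP10, from 94.6 ± 3.86 to 31.3 ± 2.64 CPM. HSPA4, another HSP110 gene, fell by 0.98 on the log2 scale. DNAJB1, a classical HSF1 target, fell from 201 ± 13.4 to 90.1 ± 1.52 CPM, and DNAJB6 by 0.41 on the log2 scale. The 3 that rose were HSPB1, the small heat shock protein HSP27 (0.79 ± 0.08), SERPINH1, the collagen chaperone HSP47 (1.23 ± 0.17), and CLU, the secreted chaperone clusterin (1.40 ± 0.29). CLU was low, at 1.37 ± 0.0603 CPM in overexpression and 0.516 ± 0.148 CPM in vector. UBB, a polyubiquitin gene, was at 402 ± 12.7 and 377 ± 33.4 CPM and did not pass (edgeR adjusted p = 0.29).

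Among 18 tested genes of other heat shock factors, their binding proteins and enzymes that modify HSF1, 9 fell and 3 rose. These are 50% and 16.7%, beside 23.4% and 22.6% of all genes tested, and the median log2 fold change was -0.28. Like the target list, this list was chosen with earlier results known and is not independent evidence of a direction. VCP, the AAA ATPase p97 that works with ubiquitinated proteins, fell from 532 ± 32.6 to 265 ± 1.25 CPM (edgeR adjusted p = 6e-06). HSF2BP, a gene named for binding HSF2, fell from 6.87 ± 0.329 to 2.704 ± 0.429 CPM, and YWHAE, a 14-3-3 protein that binds phosphorylated HSF1, by 0.47 on the log2 scale. NUP98 and CSNK2A1 fell by 0.36 and 0.27. HDAC6, a deacetylase that forms a complex with HSP90 and VCP, rose from 72.1 ± 7.01 to 127 ± 7.23 CPM (edgeR adjusted p = 9.8e-05). The kinase PLK1 and FBXW7, a ubiquitin ligase subunit, both with HSF1 as a known substrate, rose by 0.35 and 0.26. The acetyltransferase genes EP300 and CREBBP, GSK3B and the chaperonin subunit CCT8 did not pass, with log2 fold changes of -0.11, -0.03, -0.02 and -0.04. HSF5, the member of this list that was not tested, had 0 estimated counts in 4 libraries, 7 in overexpression replicate 3 and 11 in vector replicate 1; it is named because it was the only gene left out.

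**Figure D5:**
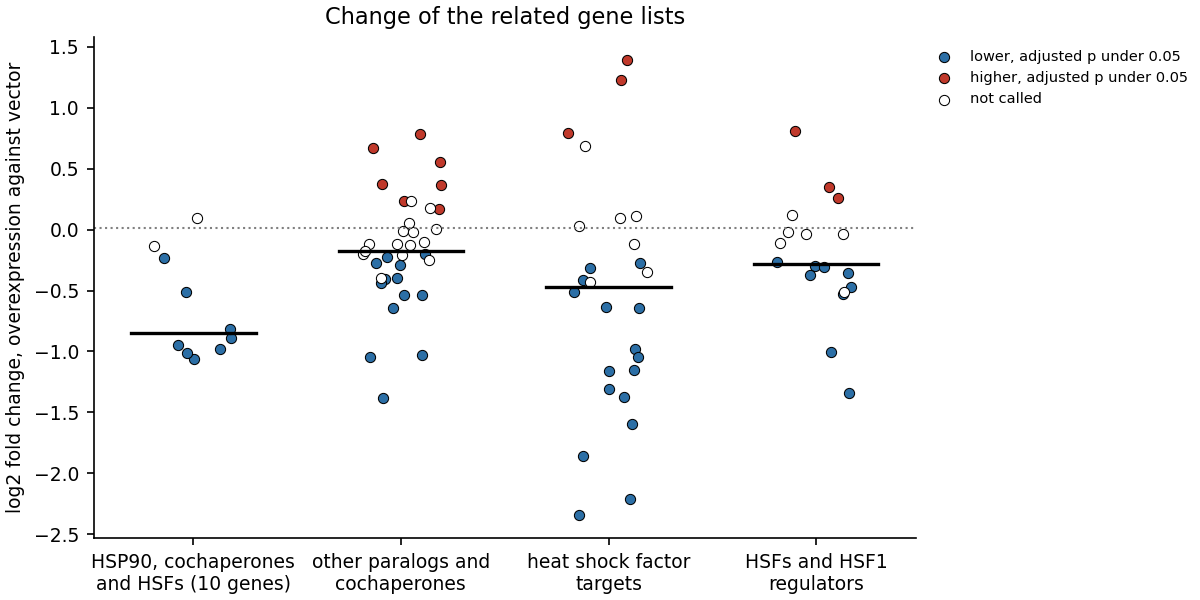
Log2 fold change of each tested gene in the 10 genes described here and 3 related lists; black bars are list medians, the dotted line is the median of all genes tested, and fill colour gives the edgeR call. The medians are -0.85, -0.18, -0.47 and -0.28 from left to right.

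The 3-unit element shown above was set beside the changes. It was present upstream of 5 of 23 target genes with a sequence (HSPA8, HSPD1, DNAJB6, CHORDC1 and SERPINH1), of which 4 fell and SERPINH1 rose. CHORDC1 is also on the cochaperone list; the other 24 genes of that list with a sequence, and the 17 regulator genes, had 0 matches. STIP1, PTGES3 and AHSA1 fell about as far as the cytosolic HSP90 genes without a 3-unit match in the window. Across the table, 55 tested genes held the element, of which 21 fell and 13 rose (38.2% and 23.6%), with a median log2 fold change of -0.20. HSP90AA1, HSP90AB1, HSPA8, HSPD1, DNAJB6 and CHORDC1 are among the 21 that fell, and SERPINH1 is among the 13 that rose. These shares therefore include genes of the lists above, whose changes were already known, and shares without them were not computed. Among all 12146 tested genes with an upstream sequence, 29.4% fell and 25% rose, with a median of -0.03. This comparison was made after the changes of the chaperone genes were known and is given as a description.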

How the data were processed

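The authors deposited 1 file of whole-number expected counts (estimated counts) per gene symbol, 1 column per library, without scaling. The submitters' processing notes name fastp 0.23.2, STAR 2.7.10a, StringTie, DESeq2 and build hg38. Annotation, strand setting and the counting step are not given in the sources used here, and a read pair may add more than 1 estimated count, so no counting interval is given. Genes passing edgeR's default filter (edgeR 4.0.16, R 4.3.3) were TMM-scaled and tested between groups with its quasi-likelihood F test, without covariates. Adjusted p is Benjamini-Hochberg over all 21055 genes, and SEs come from the F statistic. Within-library ratios were compared by exact two-sided permutation tests. Alternatives were DESeq2 1.42.0, limma-voom (limma 3.58.1), DESeq2 size factors, upper-quartile factors, all genes kept, a stricter minimum (1 CPM and 50 estimated counts on average), a replicate block, values divided by 4, and each library left out. Gene positions and exons came from GENCODE 29, upstream sequences from RefSeq (GRCh38.p14). Named were the 10 genes, PDCD1 and, per list, at most 5 rises and 5 falls of smallest adjusted p plus any gene averaging at least 100 CPM, of which a few are not reported here. The 10 genes and the lists were chosen with earlier results of these data known. Figures were drawn with matplotlib 3.10.9.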

Additional observations from a re-analysis of the deposited data

How the results depend on the processing

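The counts of called genes (all genes, the 10 genes and the 3 lists) stayed within 1.5 times their value under all 14 alternatives, and the HSP90AA1 share kept its direction in all 8 of its own. All genes called numbered 9705, and 7916 to 10868 with 1 library left out. Among the 10 genes none reversed, and the 8 falls passed under every alternative; the 3 calls that changed are those of CDC37 and HSF2 given above. Of 76 list genes none reversed; over 1060 refits of single list genes, 24 lost a call and 27 gained one. The calls of SUGT1, RPAP3, UNC45A and DEDD2, named after their values were seen, were each lost in several of these fits, with main adjusted p of 0.041, 0.026, 0.018 and 0.024. With the replicate number as a block, 8690 genes were called in all, and 8 of the 10 genes, 18 of 35 cochaperone genes, 20 of 26 target genes and 12 of 18 regulator genes. The labels do not say that a number marks a shared culture, and deviations of same-numbered libraries correlated at 0.0307, 0.0118 and 0.0163, so the numbers were not treated as pairs, although each library correlated best with its own number, a hint from the data and not the design. No scaling moved the median of all genes by over 0.1 on the log2 scale. Each of the 10 genes had at least 2731 estimated counts per library, and whether depth limited their calls was not tested.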
